A study of Homo sapiens with 15 samples.

Results

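The DNA methylation that came back in HCT116 cells after an inducible DNMT1 knockdown was ended is described here, from whole-genome bisulfite sequencing of 2 bulk populations. The members are 4 of the 15 libraries of the series, chosen by their labels: Knockdown and Recovery of the shDNMT1 populations R1 and R2. HCT116 is an established human colorectal carcinoma line, and in these cells doxycycline switched on a short hairpin RNA (shRNA) directed at DNMT1, with no selection of clones. Knockdown libraries were made at day 14 of 10 ng/mL doxycycline, Recovery libraries at day 28 after 14 further days without it, and a Baseline library of each population at day 14 in cells that had never had it. The shUHRF1 libraries of the series, from 3 clones on the same schedule, are compared with these in 1 place. They also enter repeated tests of regions, with all 15 libraries or without R1 or R2. In the tests without R1 or R2 the spread between libraries comes from the clones.

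DNMT1 is the maintenance methyltransferase, which copies methylation from the parental strand of newly replicated DNA onto the daughter strand, and UHRF1 recruits it to the half-methylated sites. When maintenance fails, methylation is diluted as cells divide. The de novo enzymes DNMT3A and DNMT3B can add methylation to sites where neither strand carries it. The files hold DNA methylation only, so neither the level of DNMT1 nor the cell type was checked here, and a bulk level is a mean over cells, in which remethylation of each cell and a change in the mix of cells cannot be told apart.

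Methylation level (mC) is the share of reads at a CpG that kept C after bisulfite treatment, given in percent, and differences are in percentage points. The gain is Recovery minus Knockdown within a population, over CpGs with 5 or more reads in both libraries. The loss is Baseline minus Knockdown, and the regained share is gain over loss across CpGs covered in all 3 libraries of a population. Mean Baseline levels of CpG classes and of bins around gene starts are also over CpGs covered in all 3. Their Knockdown and Recovery levels are over CpGs covered in both of those libraries. The 6 libraries held 371398608 to 533294521 reads at CpGs, with a median of 12 to 18 reads per CpG. Reads on the mitochondrial genome were scored methylated at 0.257% to 0.295%, taken here as an estimate of incomplete conversion. This rate was slightly lower in both Knockdown libraries (0.257% each) than in the other 4. Whether all of it is incomplete conversion was not tested.

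Methylation returned across the genome to close to its Baseline level. Mean mC went from 40.6% to 74.0% in R1, a gain of 33.4 points over 24761670 CpGs, and from 39.7% to 73.9% in R2, a gain of 34.2 points over 24418735 CpGs. Both Recovery libraries lay above both Knockdown libraries, and the mean gain was 33.8 ± 0.599 points (SD, n = 2 populations; exact two-sided sign-flip permutation p = 0.5, the smallest that 2 populations can give). The regained share was 96.6% in R1 and 96.8% in R2. What was still missing at Recovery was 1.15 ± 0.0113 points of the Baseline mean of 75%.

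The spread of levels over single CpGs also returned to near its Baseline shape. At Knockdown 81.1% of CpGs in R1 and 81.0% in R2 were between 10% and 90% methylated, and 1.46% and 1.28% were at 90% or above. At Recovery the intermediate CpGs made up 33.2% and 33.4%, and 54.9% and 54.6% were at 90% or above. Baseline libraries held 30.6% and 29.4% of intermediate CpGs and 57.7% and 58.8% at 90% or above, so the fully methylated class was the one that stayed short of Baseline in both populations.

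**Figure D1:**
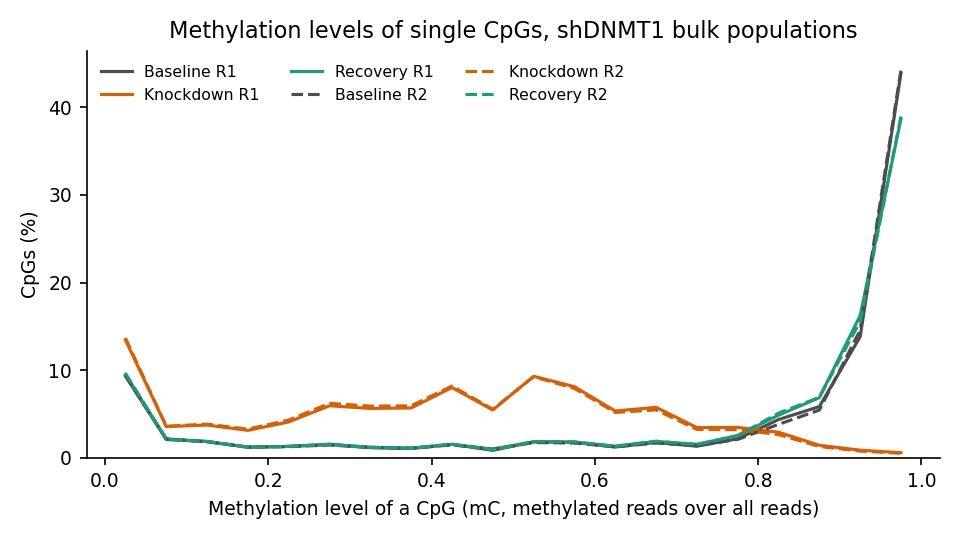
Share of CpGs (y axis, %) by methylation level (x axis, mC in steps of 0.05) in each of the 6 shDNMT1 libraries, solid for R1 and dashed for R2. At Knockdown the CpGs spread over all levels, and at Recovery 54.9% and 54.6% of them were at 0.9 or above.

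Nearly all single CpGs that moved went up. The median gain was 35 points in R1 and 36.1 in R2, with 58.7% and 60.2% of CpGs gaining 30 points or more and 0.0321% and 0.0361% falling by as much. In both populations 47.7% of 23882215 CpGs gained at least 30 points, and 97 CpGs fell by at least 30 points. Fisher's exact test of the reads, within each population and with Benjamini-Hochberg adjustment, called 48.5% of CpGs higher in R1 and 46.6% in R2 and 0.0018% and 0.00134% lower. This test compares 2 libraries and counts reads as independent molecules, so its p-values cover counting error only and say nothing of the spread between cultures. It is also limited by depth, since called CpGs had a median of 20 and 18 reads at Recovery and the others 15 and 13. CpGs called higher in both populations numbered 8371885, which is 70.6% of the R1 calls and 74.0% of the R2 calls at CpGs tested in both.

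For regions, the quasi-likelihood test of edgeR was run on methylated and unmethylated counts, with the population as a block. Of 28633 windows of 100 kb, 28600 (99.9%) were higher at Recovery and 0 were lower at an adjusted p under 0.05. At an unadjusted p under 0.05 also 0 were lower, and limma called 1. A gain of 30 points or more in both populations was held by 19113 called windows (66.8%). Window gains of R1 and R2 rose and fell together (Pearson r 0.977 over 28633 windows, which are not independent), and 98.6% of windows ended within 5 points of Baseline in both populations. Of promoters, described further on, 67.4% did so, with 58 ending at least 10 points below Baseline in both populations and 18 at least 10 points above.

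Most windows at the extremes were thinly covered. The window with the largest mean gain, chr21:6100001-6200000, had 63 to 103 reads per library and went from 34.8% to 82.4% in R1 and from 23.8% to 85.4% in R2. The smallest mean gain was that of chr14:19400001-19500000, with 115 to 221 reads, which read 31.3% and 20.5% in R1 and 38% and 39.1% in R2, so the populations differed in direction. The next, chr1:148600001-148700000, with 128 to 233 reads, was lower at Recovery in both, at 12.6% and 11.9% in R1 and 13.3% and 9.01% in R2, and is the window that limma called lower. Above it, chr1:144000001-144100000 had 536 to 1106 reads and stayed at 6.06% and 6.56% in R1 and at 4.57% and 4.82% in R2, against Baselines of 21.5% and 13.5%. None of these 3 windows passed the edgeR test (adjusted p = 0.404, 0.458 and 0.6).

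The gain was larger in highly methylated domains (HMDs) than in partially methylated domains (PMDs), the long late-replicating stretches that many cancers carry at reduced methylation. The authors' Baseline lists of each population were used, in which HMDs were picked by their mean level. In HMDs mC went from 51.5% to 91.4% in R1 and from 50.4% to 91.4% in R2. In PMDs it went from 28.1% to 55.3% and from 27.1% to 54.7%. The difference in gain was 12.7 points in R1 and 13.4 in R2 (exact sign-flip permutation p = 0.5, the smallest possible), far beyond the distance between populations, and 13.0 on average with the lists of the other population as with the own ones. It dropped to 6.0 points when regions of low methylation (LMRs) or none (UMRs), which overlap the listed PMDs, were taken out of them. The regained share differed far less than the gain, at 97.0 ± 0.0979% in HMDs and 95.9 ± 0.0626% in PMDs.

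LMRs, which are short and often enhancer-like, and UMRs gained least of the listed classes. In LMRs listed in the other population mC went from 10.9% to 24.6% in R1 and from 10.7% to 24.8% in R2, and in UMRs from 6.84% to 15.2% and from 6.72% to 15.3%. Both classes regained 95% of their loss. With a population's own list the shares read 101.9% and 98.4%, but those lists rest on the same Baseline reads that enter the share.

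The domain calls followed the levels. At Knockdown only 26 HMDs were listed in each population, covering 1.42 Mb in R1 and 0.165 Mb in R2. At Recovery there were 34643 and 34228, covering 1470.0 and 1469.0 Mb, against 1517 and 1533 Mb at Baseline. Of the length listed as PMD at Knockdown, 87.0% in R1 and 87.7% in R2 was HMD at Recovery. The UMR length of 1355 and 1412 Mb at Knockdown went to 386 and 376 Mb, and 82.9% and 81.0% of the Knockdown UMR length lay in PMDs at Recovery. Of that same length 82.3% and 79.6% lay in PMDs at Baseline. UMRs at Recovery covered 28.4% and 26.6% of it, and UMRs at Baseline had covered 26.9% and 25.8%. Recovery HMDs stayed shorter in total than Baseline HMDs in both populations, and PMDs were more numerous, at 8668 and 8487 against 7449 and 7112. The classes were called separately in each library and overlap, so these lengths also move with the calling.

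**Figure D2:**
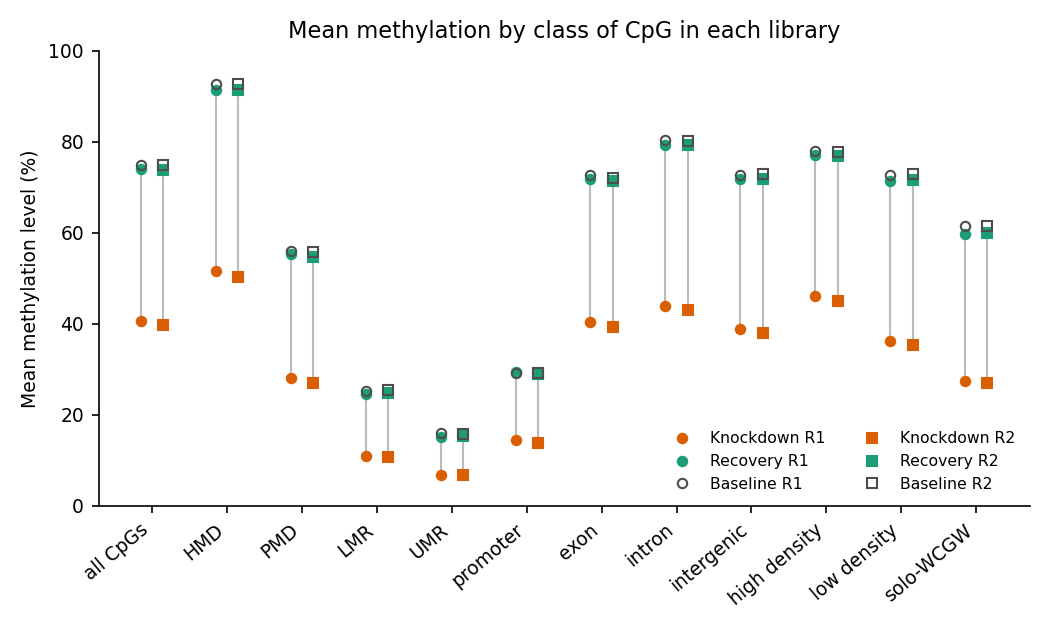
Mean methylation level (y axis, %) of each class of CpG (x axis) at Knockdown (orange), Recovery (green) and Baseline (open), circles for R1 and squares for R2. HMD and PMD are the population's own Baseline lists, LMR and UMR those of the other population. Baseline means are over CpGs covered in all 3 libraries, the others over CpGs covered in Knockdown and Recovery. Recovery sits far above Knockdown in each class and close to Baseline, with HMDs at 91.4% and PMDs at 55.3% and 54.7%.

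The gain differed with CpG density in opposite directions in HMDs and PMDs. Over all CpGs, those whose nearest CpG was 20 bp or more away (low density) gained 35.3 points in R1 and 36.1 in R2, and the others (high density) gained 31.1 and 31.9. That difference of 4.17 ± 0.0266 points (exact sign-flip permutation p = 0.5, the smallest possible) was 6.73 points within Baseline HMDs and -8.59 within Baseline PMDs, and 1.14 when the limit was set at 35 bp. In PMDs low-density CpGs went from 21.3% to 45.6% in R1 and from 20.5% to 45.1% in R2, while high-density CpGs went from 40.4% to 73.0% and from 39.2% to 72.6%. Low-density CpGs of PMDs had less to regain, with a Baseline of 46.8% and 46.3% against 73.7% and 73.5%.

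The regained share, in contrast, had 1 direction. It was 96.1% and 96.3% at low-density and 97.4% and 97.5% at high-density CpGs, and low-density CpGs were lower in HMDs (96.6% against 97.6%) and in PMDs (95.2% against 97.0%). CpGs whose neighbour starts 2 bp away gained least, 21.3 and 21.9 points, from Knockdown levels of 49.3% and 48.0%, and regained 98.4% and 98.2%. The gain peaked at a distance of 28 bp, at 39.3 points in R1 and 40.2 in R2. At 100 bp the gain was 33.1 and 33.7 points and the share 95.7% and 95.9%.

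**Figure D3:**
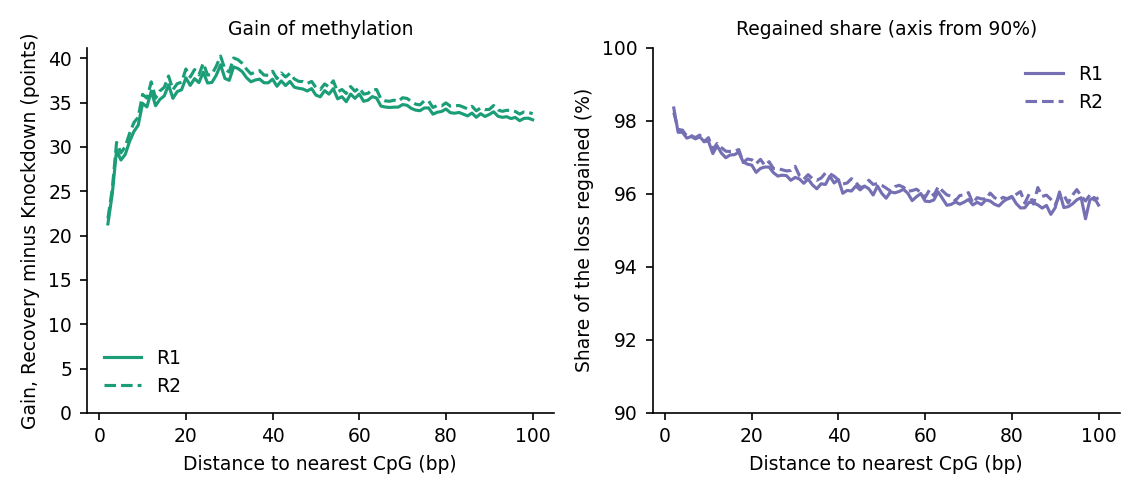
Gain (left, points) and regained share (right, %, axis from 90) against the distance from a CpG to its nearest CpG in bp, R1 solid and R2 dashed. The gain rises from 21.3 and 21.9 points at 2 bp to a maximum near 28 bp, and the share falls from 98.4% and 98.2% to 95.7% and 95.9% at 100 bp.

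Isolated CpGs differed by their flanking bases. Solo-WCGW sites, with A or T on both sides and no CpG within 35 bp, are known as the sites that lose methylation first in dividing and ageing cells. They went from 27.5% to 59.7% in R1 and from 27.0% to 59.9% in R2 and regained 94.8% and 95.1%. Isolated CpGs with G or C on both sides went from 43.4% to 78.4% and from 42.6% to 78.5% and regained 97.0% and 97.1%. The lowest regained share of the domain and density classes was that of solo-WCGW sites in PMDs, which went from 12.6% to 29.5% and from 12.1% to 29.0% and regained 93.0% and 93.3%. The order of these 3 classes was the same in R1 and R2.

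Sites that had fallen furthest gained most but ended lowest. Among CpGs at 85% or more at Baseline in the other population, those at 0 to 20% in its Knockdown library gained 53.4 ± 0.363 points and regained 94.8 ± 0.140% (SD, n = 2 populations). Those at 80% or more in that Knockdown library gained 24.0 ± 0.871 points and regained 98.9 ± 0.196%. In the measured population the mean Knockdown levels lay less far apart, at 34.1% for the first class and 73.2% for the second. CpGs of the first class were already lower at Baseline, at 90.3 ± 0.849% against 97.5 ± 0.0386%, and ended at 87.5 ± 0.834% against 97.2 ± 0.0153%. Classes were set in the population that was not measured, so that low reads by chance did not count as a loss and a gain.

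By annotation (GENCODE release 44), introns gained 35.3 and 36.2 points, intergenic CpGs 33.0 and 33.8, exons 31.4 and 32.0 and promoters 15.0 and 15.1. A promoter here is the 1 kb before the 5′ end of a protein-coding gene and the first 100 bp of the gene. That end is the outermost one of the annotated gene span, and which start these cells use was not measured. Many promoter CpGs carried little methylation at any stage, and the highly methylated ones gained more. Promoter CpGs at 85% or more at Baseline in the other population gained 46.4 ± 0.918 points, against 41.4 ± 0.787 in introns and 41.1 ± 0.740 in exons. They had fallen lower, to 46.9 ± 1.04% against 53.7 ± 0.808% in introns, and regained a smaller share, 96.3 ± 0.0654% against 97.4 ± 0.0269%.

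Of 18633 promoters tested, 16290 (87.4%) were higher at Recovery and 8 (0.0429%) lower. With limma 16487 were higher and 43 lower, and with promoters of 500 bp on each side of the 5′ end 12783 of 18590 (68.8%) were higher and 23 lower. Among the 7707 with a mean Baseline of 50% or more, 7697 were higher, with a median gain of 39.0 points. The 6287 promoters at 10 to 50% had a median gain of 13.4 points, and 6109 of them were called. Among the 4639 promoters under 10%, 2484 were called higher although the median gain was 0.934 points, and 3916 moved by less than 5 points in both populations. A gain of 30 points or more in both populations was held by 5820 called promoters (31.2%).

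Around gene starts the returning methylation followed the Baseline profile. In promoters under 10% at Baseline, CpGs 0 to 250 bp upstream of the 5′ end were at 0.280% in both Knockdown libraries and at 0.372% and 0.360% at Recovery. Those centred 2125 bp upstream went from 39.0% to 79.1% in R1 and from 38% to 78.9% in R2. In promoters at 10 to 50%, the bin centred 875 bp upstream went from 34% to 79.8% and from 33.0% to 79.9%, but the one centred 125 bp upstream only from 1.63% to 3.36% and from 1.51% to 3.29%. Baseline levels of that bin were 3.42% and 3.35%, and those at 875 bp were 81.9% and 82.1%. In promoters at 50% or more, Baseline fell from 88.0% and 88.1% at 625 bp upstream to 53.9% and 53.7% at 875 bp downstream. Recovery read 87.0% and 86.9% in the first of these bins and 54.3% and 53.9% in the second. Baseline needed coverage in all 3 libraries, so its CpGs are not all those of Recovery.

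**Figure D4:**
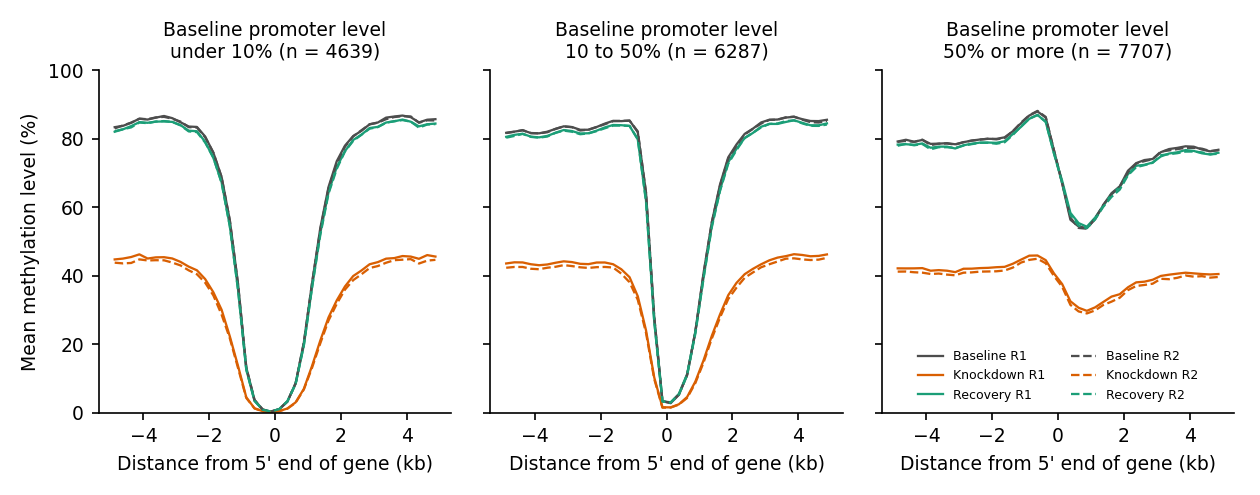
Mean methylation level (y axis, %) in bins of 250 bp against the distance from the 5′ end of protein-coding genes (x axis, kb), for promoters under 10%, at 10 to 50% and at 50% or more at Baseline. Recovery (green) lies close to Baseline (grey) in all 3 classes. Baseline is over CpGs covered in all 3 libraries, the other stages over CpGs covered in Knockdown and Recovery. The unmethylated centre of the first 2 classes stays near 0 while the flanks rise, to 79.1% and 78.9% at 2125 bp upstream in the first class.

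The 10 promoters with the largest gains were those of ZNF532, a zinc-finger protein gene, STK3, a kinase of the Hippo pathway, RHBDL1, TUBB6, a tubulin, DENND2A, AIFM3, ASCC1, CLUH, CSTF3, a factor of mRNA 3′-end cleavage, and SCX, a transcription factor of tendon. Their mean gains were 64.5 to 69.2 points. ZNF532 (ENSG00000074657.14) went from 19.8% to 92.9% in R1 and from 30.2% to 95.6% in R2, with Baselines of 94.4% and 96.0%. Its log2 change in the odds of methylation was 5.66 ± 0.31 (SE, edgeR, adjusted p = 4.59e-10). STK3 went from 22.5% to 87.9% and from 18.4% to 90.1%. These values chose the promoters and are given as a description. All 10 were above 90% at Baseline in both populations, with Knockdown levels of 11.8% to 36.3% and Recovery levels of 85.6% to 96.6%. RHBDL1 had 122 reads at Baseline, 483 at Knockdown and 234 at Recovery in R1, and 208, 393 and 163 in R2. The part of read depth in these gains was not tested.

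Single CpGs inside these promoters show the scale of the change in reads. For 4 of them the CpG with the largest gain common to both populations, among those with 10 or more reads in all 4 libraries, is shown with 14 bases on each side. RHBDL1 had no such CpG, and the other promoters, STK3 among them, are not shown. Bases are those of the plus strand of hg38, 5′ to 3′, and the capitals mark the measured CpG.
ZNF532 (chr18:58862606-58862635): ccttgcacgggtcaCGattatacaccttcg
TUBB6 (chr18:12306971-12307000): atctgctccctgggCGtgtggctgtgtaaa
DENND2A (chr7:140673946-140673975): gtgggctcaggctgCGtggcccaggtgtac
AIFM3 (chr22:20964263-20964292): tggtggtgggggctCGaacttgccccctgg

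The ZNF532 CpG, 20 bp downstream of the 5′ end and so inside the gene, was methylated in 1 of 15 reads at Knockdown and 12 of 12 at Recovery in R1, and in 2 of 12 and 11 of 12 in R2. The TUBB6 CpG, 684 bp upstream, went from 5 of 21 to 15 of 17 reads in R1 and from 12 of 34 to 18 of 20 in R2. The DENND2A CpG, 33 bp downstream of the 5′ end, went from 4 of 21 to 18 of 18 and from 5 of 21 to 11 of 11. In both populations most reads of these sites were unmethylated at Knockdown and methylated at Recovery. The AIFM3 CpG, 831 bp upstream, went from 3 of 26 to 13 of 16 and from 2 of 16 to 18 of 20.

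The smallest regained shares were looked for among the 6018 promoters with a Baseline of at least 50% and a loss of at least 30 points in both populations, where the median share was 96.8%. The 6 lowest were PCED1A, LRRC32, a surface receptor of regulatory T cells that holds latent TGF-beta, OR2H1, an olfactory receptor, SRPX, GRID1, a glutamate receptor subunit, and SP8, a zinc-finger transcription factor. PCED1A went from 21.5% to 40.7% in R1 and from 24.2% to 42.3% in R2, against Baselines of 61.3% and 54.2%. LRRC32 went from 26.5% to 47.2% and from 20.3% to 45.2%, against 65.7% and 62.5%. In both populations these promoters rose above Knockdown without reaching Baseline. OR2H1 differed between populations, from 42.6% to 48.1% in R1 and from 34.7% to 77.8% in R2, and its call was lost without R2 (adjusted p = 0.641, edgeR, from 0.00183). The call of SP8 was also lost without R2. In tests without a population the spread between libraries comes from the shUHRF1 clones.

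1 CpG of LRRC32, 849 bp upstream and the one with the smallest gain among the 17 of the promoter with 10 or more reads in all 4 libraries, shows a site that started low.
LRRC32 (chr11:76671582-76671611): ggcattatcttgccCGaatttttaaagtac
It was methylated in 6 of 16 reads at Baseline, 4 of 34 at Knockdown and 6 of 22 at Recovery in R1, and in 3 of 18, 1 of 32 and 5 of 19 in R2.

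Shortfalls of single promoters were shared only in part. The 301 promoters with the lowest shares in R1, with a median of 75% there, had a median of 93.1% in R2, against 97.0% for all 6018 in R2, and 182 of the 301 lay under that median. The reverse choice gave 76.6% in R2, 93.4% in R1 and 96.6% for all, with 179 of 301 under the median. Over 24275 windows with a loss of 20 points or more in both populations, the shares correlated between R1 and R2 with a Pearson r of 0.192, a description over windows that are not independent. The shares of those windows ran from 92.2% at the 5th percentile to 100.5% at the 95th. Over the 8441 promoters with such a loss r was 0.0764 and the shares ran from 78.0% to 110.7%, and 719 of these promoters (8.52%) were under 90% in both populations.

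The 8 promoters called lower were DYNLT4, ADAMTS6, MTMR11, PTCD3, GINS1, H2BC21, MED13 and FOXD2, of which the last 3 are outside the naming rule and were added because there are so few. All were unmethylated, and none exceeded 1.1% in any of the 6 libraries. DYNLT4, the largest fall, went from 1.1% to 0.30% in R1 and from 0.582% to 0% in R2. For scale, the rate on the mitochondrial genome was 0.257% to 0.295% in the 6 libraries. All 8 lost their call without R1, 6 lost it without R2 and 6 lost it in the fit of all 15 libraries.

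Gene bodies rose almost without exception. Of 18838 bodies, each starting 1 kb inside the gene and ending where it ends, 18802 (99.8%) were higher and 0 lower, with 0 lower also at an unadjusted p under 0.05 and by limma. The median gain was 38.5 points, and 94.0% of bodies ended within 5 points of Baseline in both populations. CLIC3, a chloride channel protein, had the largest gain, from 19.7% to 97.2% in R1 and from 20.8% to 94.3% in R2. SOX18 (a transcription factor of vessel development), LRFN4, NAT14 and SOCS3 (an inhibitor of cytokine signalling) followed, with mean gains of 64.2 to 68.0 points. Each of these bodies had most reads at Knockdown. CLIC3 had 203 reads at Baseline, 649 at Knockdown and 286 at Recovery in R1, and 338, 716 and 212 in R2. The part of read depth in these gains was not tested.

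The bodies with the smallest gains were those that carried no methylation at any stage. JUNB and JUND, subunits of the AP-1 transcription factor, read 0.105% to 0.537% and 0% to 0.823% in the 6 libraries, and RGPD5, CLDND2 and C10orf95 were at 0.952% or below. None of the 5 was called. RGPD5 belongs to a family of near-identical copies, so its reads are uncertain. STC2, a secreted glycoprotein whose body was followed in the study, went from 37.7% to 74.4% in R1 and from 34.4% to 73.3% in R2. The body of UHRF1 went from 39.0% to 82.8% and from 38% to 79.9%, and that of DNMT1 itself from 48.5% to 87.7% and from 47.7% to 87.9%. The DNMT1 promoter rose from 9.62% to 36.3% in R1 and from 12.9% to 31.6% in R2, above its Baselines of 30.5% and 23.4% in both. Recovery was not tested against Baseline, and of all promoters only 67.4% ended within 5 points of Baseline in both populations.

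Lists of genes with known roles were read against all promoters tested, of which 87.4% were called higher with a median gain of 18.4 points. A list's median moves with the Baseline of its members: 7505 of the 18633 promoters were at 50% or more in both populations, against 7 of 8 Wnt antagonists, 17 of 24 tumour suppressors, 19 of 25 germline, 11 of 13 cancer/testis, 21 of 32 imprinted, 13 of 23 colon, 20 of 30 interferon, 22 of 39 HOX and 2 of 42 ribosomal promoters. At a mean Baseline of 50% or more the median gain of all promoters was 39.0 points. Among secreted Wnt antagonists, 7 of 8 tested promoters rose, with a median gain of 40.5 points. SFRP1, an antagonist silenced by methylation in colorectal cancer, went from 48.1% to 91.3% in R1 and from 49.8% to 92.9% in R2, with Baselines of 93.4% and 92.0%. WIF1 went from 58.8% to 90.9% and from 47.5% to 95.5%. DKK1 was unmethylated throughout, at 0.197% to 0.829%, and was not called (edgeR, adjusted p = 0.0602). All 24 tumour suppressor and marker genes silenced in colorectal cancer were called higher, with a median gain of 31.6 points. TFPI2, a protease inhibitor, rose from 49.3% to 93.7% and from 40.4% to 93.4%, RUNX3 from 50.9% to 92.2% and from 46.7% to 97.6%, and HIC1 from 47.0% to 89.2% and from 48.8% to 94.2%. SOCS1 went from 0.315% to 0.950% in R1 and from 0.574% to 1.59% in R2, and its call was lost without either population.

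Genes of the germline are kept methylated in somatic cells. All 25 tested promoters of the list were called higher, against 87.4% of all promoters, with a median gain of 35.3 points. Of all promoters with a mean Baseline of 50% or more, 99.9% were called higher, and 19 of the 25 were at 50% or more in both populations. MOV10L1, a helicase of the piRNA pathway, went from 34% to 87.7% in R1 and from 40.9% to 87.7% in R2, and TDRD12 from 55.7% to 96.1% and from 51.2% to 95.8%. STAG3, a meiotic cohesin subunit, was methylated at 6.04% and 8.36% at Baseline and went from 1.92% to 5.58% and from 1.56% to 5.27%. All 13 tested cancer/testis antigen promoters of the X chromosome also rose, by a median of 33.2 points. SAGE1 went from 50.9% to 94.5% and from 45.8% to 92.4%, and MAGEA4 from 39.4% to 79.5% and from 33.0% to 78.7%. MAGEB2 ended below its Baselines of 37.7% and 30.8%, at 29.3% and 19.9%, and its call was lost without R1.

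Imprinted genes are governed by regions methylated on 1 parental allele, set in the germline and kept by maintenance. Which promoters of the list are such regions was not checked. Their median Baseline was 64.2%, with 21 of 32 at 50% or more and 3 under 10% in both populations. Of the 32 tested promoters 30 rose, against 87.4% of all promoters, with a median gain of 29.6 points. SGCE went from 26.3% to 63.5% in R1 and from 28.2% to 57.6% in R2, against Baselines of 63.4% and 64.7%. GNAS went from 28.8% to 56.2% and from 28.6% to 60.9%, against 57.8% and 70.7%. MEST reached 55.6% from 34.1% in R1, against a Baseline of 72.4%, but 61.8% from 28.9% in R2, against 57.5%. NAP1L5, whose call was lost without R2, went from 29.1% to 46.9% and from 25.9% to 47.7%, GRB10 from 10.5% to 21.7% and from 10.4% to 35.6%, and PLAGL1 from 38.9% to 61.5% and from 33.0% to 67.3%. PEG10 differed between the populations, at 17.6% and 29.8% in R1 and at 17.3% and 12.5% in R2, and was not called (adjusted p = 0.47). Of the 12 imprinted promoters with a Baseline of at least 50% and a loss of at least 30 points in both populations, the regained share had a median of 93.0% and ranged from 80.6% to 104.7%. Bulk levels do not tell which allele was methylated.

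Writers, erasers and readers of methylation were mixed, since 4 of the 19 tested promoters were at 50% or more at Baseline. Of the 19, 16 (84.2%) rose, against 87.4% of all promoters, and the median gain was 14.0 points. TET2, which oxidises 5-methylcytosine, went from 25.0% to 82.9% in R1 and from 30.9% to 83.3% in R2. USP7, a deubiquitinase that binds DNMT1 and UHRF1, went from 48.6% to 92.6% and from 36.2% to 92.7%. The UHRF1 promoter, at the 5′ end of the annotated gene span, went from 52.7% to 94.5% and from 48.9% to 92.3%. TET3 read 0% to 0.646% and was not called (edgeR, adjusted p = 0.184).

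Colon epithelium genes rose at 22 of 23 tested promoters, against 87.4% of all promoters, with a median gain of 30.6 points. CDX1, an intestinal homeobox factor, went from 42.3% to 96.3% in R1 and from 34.3% to 95.3% in R2, and MUC2, the main mucin of goblet cells, from 40.2% to 92.2% and from 47.0% to 95.5%. GATA6 was unmethylated at 0.143% to 1.25% and not called (edgeR, adjusted p = 0.176). Interferon and double-stranded RNA response promoters rose at 27 of 30, near that share, with a median gain of 39.9 points. IFNB1, which encodes interferon beta, went from 23.2% to 81.4% and from 20.5% to 80.3%, and EIF2AK2, the double-stranded RNA kinase PKR, from 39.7% to 90.3% and from 34% to 88.6%. IFI6 read 0% to 1.64% and was not called (adjusted p = 0.874).

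HOX genes, which pattern the body axis, rose at 37 of 39 tested promoters, against 87.4% of all promoters, with a median gain of 30.6 points. HOXB5 went from 30.9% to 91.3% in R1 and from 26.4% to 86.8% in R2 and HOXB7 from 38.4% to 96.8% and from 38.5% to 96.2%, while HOXA6 stayed at 0.316% to 0.806% and was not called (adjusted p = 0.921). Cytosolic ribosomal protein genes were the list with the smallest gain. Of 42 tested promoters 29 (69.0%) were called higher, with a median gain of 5.37 points, and 18 were under 10% at Baseline in both populations. RPL4 was the exception with a gain of 30 points or more in both, from 47.3% to 91.3% and from 56.1% to 87.6%. RPL3 went from 9.90% to 39.7% and from 11% to 51.2%, and RPS18 stayed at 0.203% to 0.516%.

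Read depth moved with methylation at promoters, most at the CpG-rich ones. In the 1317 promoters with 50 or more CpGs and a Baseline of 50% or more, reads per CpG were 0.394 and 0.401 of the library mean at Baseline, 0.522 and 0.591 at Knockdown and 0.404 and 0.426 at Recovery. In the 6390 promoters of that class with fewer CpGs they were 0.953 and 0.956 at Baseline, 1.05 and 1.08 at Knockdown and 0.966 and 0.986 at Recovery. Those at 10 to 50% had 0.964 and 0.983, 1.00 and 1.1, and 0.974 and 1.03. Promoters under 10% at Baseline had 1.03 to 1.14 of the library mean over all stages. The part of this in the promoter levels was not tested.

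Chromosomes 1 to 22 and X gained in nearly the same order in both populations, with Y, covered at 907 and 903 CpGs, not ranked. Chromosome 22 gained most, 36.1 points in R1 and 37.0 in R2, followed by 17 (35.3 and 36.3), 19 (35 and 35.9), 12 (34.8 and 35.7) and 4 (34.5 and 35.3). Chromosomes X (30.5 and 31.2) and 18 (30.4 and 31.2) gained least of these and traded places between populations. The first 10 chromosomes held the same rank in R1 and R2, and the distance from chromosome 22 to 18 was 5.76 ± 0.102 points. Neighbours in the order differed by less than the 0.847 points by which R2 exceeded R1 over the genome. Regained shares were closer together, from 96.2 ± 0.0673% on X to 97.1 ± 0.133% on 22. With R2 above R1 on all 23, no chromosome was tested.

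**Figure D5:**
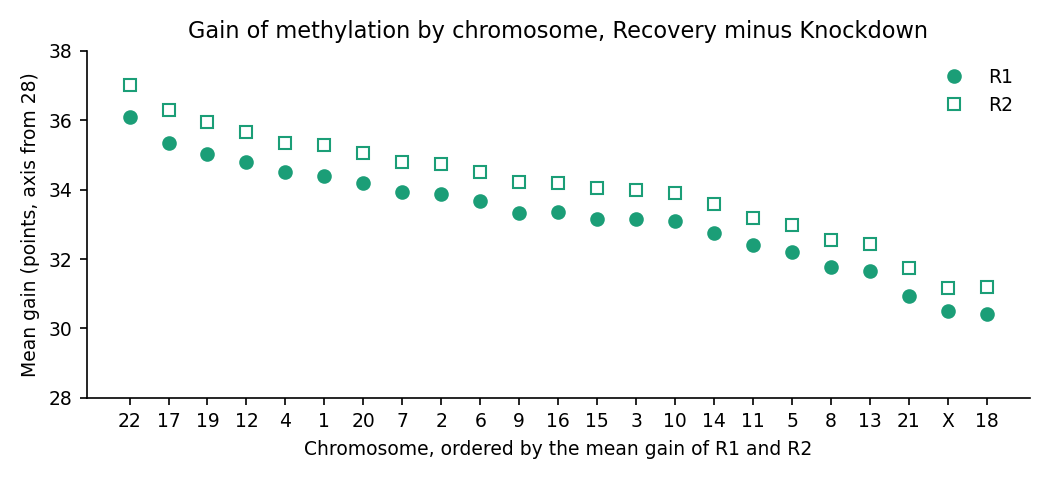
Mean gain (y axis, points, starting at 28) of chromosomes 1 to 22 and X in R1 (filled) and R2 (open), ordered by their mean. Chromosome 22 is highest at 36.1 and 37.0 points and 18 and X lowest at 30.4 to 31.2, and R2 is above R1 throughout.

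Set beside the shUHRF1 clones on the same schedule, the shDNMT1 populations regained a larger share of what they had lost. The regained share was 96.6% and 96.8% in R1 and R2, and 42.1%, 47.4% and 38.4% in the shUHRF1 clones Cl.3, Cl.6 and Cl.9. The groups did not overlap, and the means of 96.7 ± 0.0868% (n = 2) and 42.6 ± 4.53% (n = 3) differed by 54.1 points (exact two-sided permutation p = 0.2, the smallest that 2 against 3 allows). The clones had lost less, 12.5, 18.8 and 28.9 points against 34.6 and 35.4, and gained 5.24, 8.87 and 11.1 points. The distance between the shRNAs was larger in PMDs, with shares of 95.9 ± 0.0626% and 25.4 ± 6.13%, than in HMDs, with 97.0 ± 0.0979% and 50.5 ± 5.11%. Each population's own Baseline list was used, so the CpGs compared differ. PMDs held 8150977 and 7847867 CpGs in R1 and R2 and 5828908, 6781404 and 3661775 in Cl.3, Cl.6 and Cl.9. All shDNMT1 cells were bulk populations and all shUHRF1 cells were clones, so the shRNA and the kind of population cannot be told apart.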

How the data were processed

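Whole-genome bisulfite libraries of HCT116 were aligned by the authors to the human genome (hg38 in the submitters' processing notes) with their pipeline Meth10X. For every CpG and library the deposited files give raw counts, the number of methylated reads and the number of all reads, with both strands on 1 row and no coverage filter, together with domain lists per library. Per their methods PMDs, LMRs and UMRs were called with MethylSeekR, and HMDs are the remaining stretches with a high mean level, found with bedtools. Treatment of duplicate reads is not given in the sources used here. All 29401360 positions on chromosomes 1 to 22, X and Y were checked to be CpGs of hg38. No column of another sample was present (0). Samples were grouped by their titles. The labels do not say that R1 and R2 were independent cultures, so p-values measure only the spread between these samples. R1 and R2 were not copies of the same counts, since the chi-square per window between them was 3.97 to 7.13. Neighbouring CpGs share reads and the libraries differ in mean level, so this value cannot exclude repeated sequencing of 1 library. Same-numbered libraries come from 1 population, which is the ground for the block, and their deviations correlated across windows with r of 0.0617 to 0.164.

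CpGs needed 5 or more reads in the libraries compared, and regions 5 CpGs and 50 reads in each of the 6 shDNMT1 libraries of the fit. Regions were tested with edgeR 4.0.16 (quasi-likelihood fit, design matrix for methylation data) and, as an alternative, limma 3.58.1, and single CpGs with Fisher's exact test, all with Benjamini-Hochberg adjustment at 0.05. Steps were tested on simulated data. Members, gene lists and rules were chosen with earlier results of these data known, so counts in the lists are no independent evidence. Named promoters are the 10 called with the largest mean gain, up to 5 called lower, the 6 with the lowest regained share, and in each of 10 lists the largest, the smallest and up to 4 with the largest loss, with imprinted genes at 25 to 75% at Baseline and the genes SFRP1, STC2, DNMT1 and UHRF1. Named bodies are the 5 largest and 5 smallest gains among those with 50 or more CpGs, and named windows the extremes. Intervals on reads would cover counting error only.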

Additional observations from a re-analysis of the deposited data

How the results depend on the processing

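Of 63 recomputed values of the main comparisons, 1 turned its sign. The difference in gain between HMDs and PMDs shrank to 6.0 points without LMRs and UMRs, and that between low and high density to 1.14 at a limit of 35 bp. The genome-wide gain was 33.0 points with reads pooled over CpGs and 34 with a minimum of 10 reads. The regained share moved by more than the spread between populations, to 97.3% at CpGs with a Baseline mC of 0.85 or more in the other population and to 97.4% with reads pooled. The distance between chromosomes 22 and 18 moved to 6.19 points with reads pooled and to 5.96 with a minimum of 10 reads. Calls moved to 279772 of 279866 with 10 kb windows, and promoter calls to 5820 when a gain of 0.3 in both populations was also asked. The low-density difference is the one that turned its sign, to -8.59 points within PMDs, an alternative chosen after seeing the data, as were the domains of the other population (13.0 points between HMDs and PMDs). Without the replicate block, which pairs the libraries of a population, 28600 windows, 16328 promoters and 18802 bodies were called higher.

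Leaving out a population in turn gave a genome-wide gain of 33.4 to 34.2 points, a regained share of 96.6% to 96.8%, an HMD minus PMD difference of 12.7 to 13.4, a density difference of 4.16 to 4.19, a chromosome difference of 5.68 to 5.83, 28444 to 28454 windows, 12833 to 13468 promoters and 18683 to 18689 bodies, the lone population being assumed to vary like the clones. The difference in regained share from the clones was 52.0 to 56.5 points. Of 801 recomputed values for 120 named regions, 768 kept their side of the threshold, 30 lost their call and 3 gained one, the cause of which was not tested. With 2 populations no sign-flip test can pass 0.05, and calls at single CpGs had a median gain of 48.4 points in R1 and 50 in R2.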
